A study of Mus musculus with 12 samples.

Results

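Tetrahydrobiopterin (BH4) is the cofactor that nitric oxide synthases need to make nitric oxide (NO) from arginine. The mRNA of 8 genes of BH4 and NO synthesis was followed in the dorsal root ganglia (DRG) of mice: Gch1, Gchfr, Pts, Spr, Qdpr, Pcbd1, Nos1 and Nos3. They were chosen by name from the table of read counts per gene, which holds 44345 gene names, and all 8 were found. Of these, 7 passed the filter on low counts, as did 16238 genes in all, and Gchfr did not.

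RNA was sequenced from the sciatic DRG of C57BL/6 mice of 5 to 8 weeks, in 12 samples of 4 groups. Mice lived for 10 days in standard housing (SH) or in an enriched environment (EE). They then underwent a sciatic nerve axotomy (SNA), in which the nerve is fully cut, or a sham operation, in which it is exposed and left uncut. DRG were removed at 24 h after the operation. Sham and axotomised mice of standard housing form SH Sham and SH SNA, and those of the enriched cages form EE Sham and EE + SNA. Each group has 3 samples, and the bilateral ganglia of 2 mice were pooled in a sample, so that a group stands for 6 mice. None of the groups carried a transgene or a drug. The study describes EE Sham as a dataset it had reported earlier. In comparisons of EE Sham with another group, a difference between datasets and a difference between conditions thus cannot be told apart. EE Sham enters the fits over both housings or both surgeries and the interaction with the same limit. Whole ganglia hold neurons, glia, vessels and immune cells, and in bulk RNA a change in the number of cells of a type and a change in the RNA per cell cannot be told apart.

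In the BH4 pathway, GTP cyclohydrolase 1 (Gch1) makes the first intermediate from GTP and is the rate-limiting enzyme. Pyruvoyltetrahydropterin synthase (Pts) and sepiapterin reductase (Spr) complete the synthesis. Pcbd1 and dihydropteridine reductase (Qdpr) return used cofactor to BH4, and Gchfr binds GTP cyclohydrolase 1 and inhibits it when BH4 is abundant. Nos1, the neuronal NO synthase, is found in a subset of sensory neurons, and Nos3 is the synthase of blood vessel endothelium. In sensory neurons, the pathway is known for the rise of Gch1 after peripheral nerve injury and for the part of BH4 in pain hypersensitivity.

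Gch1 is on chromosome 14 of GRCm38, from 47153895 to 47189413 on the minus strand. The 250 bases before its start (RefSeq, GRCm38.p6, chr14:47189414-47189663, minus strand) are shown because Gch1 was the gene of BH4 synthesis that rose after SNA. The capitals mark TGACG, the core of the cAMP response element, 88 bases before the start, and a CCAAT box 70 bases before it.

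Gch1: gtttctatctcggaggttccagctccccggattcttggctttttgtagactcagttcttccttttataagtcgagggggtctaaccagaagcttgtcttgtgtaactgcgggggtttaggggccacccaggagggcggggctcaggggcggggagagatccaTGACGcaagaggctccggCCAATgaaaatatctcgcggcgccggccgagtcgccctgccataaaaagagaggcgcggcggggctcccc

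Promoters were found for 7 of the 8 genes, all but Nos3, and only the 250 bases before the start were searched. The RefSeq start of Nos1 lies at an inner exon of 4 of its 7 GENCODE transcripts and at the first exon of 0, so that its window is not that of the annotated transcript starts. On either strand, TGACG was in those of Gch1 and Nos1 and in 17.8% of 32851 promoters. CCAAT was in those of Gch1, Gchfr and Qdpr and in 33.8% of all promoters. None of the 7 held the full element TGACGTCA, found in 1.55%, or the AP-1 letters TGACTCA, found in 4.46%. These are matches of letters and say nothing of binding.

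The other genes lie apart from each other on GRCm38. Pts spans chromosome 9 from 50521617 to 50528724 and Spr chromosome 6 from 85130176 to 85137766, both on the minus strand. Gchfr spans chromosome 2 from 119167773 to 119172390 and Pcbd1 chromosome 10 from 61089331 to 61094324, both on the plus strand. Chromosome 5 holds Qdpr (45434021 to 45450236, minus), Nos1 (117781032 to 117958840, plus) and Nos3 (24364810 to 24384474, plus). These 3 share exon bases with genes of the opposite strand. The sources used here do not state whether the counting used strand, so that how reads on the shared bases were counted is not known. The share was 332 of 1788 exon bases for Qdpr and 268 of 11151 for Nos1. It was largest for Nos3, with 1040 of 4132 bases shared with Gm15587 and 294 with Atg9b.

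The samples held 11343579 to 22871460 reads on genes. Levels of single genes are given in CPM, which are reads relative to the library total as scaled by edgeR's TMM. The injury gene Atf3 had 109.8 to 167.6 CPM in the 6 Sham samples and 453.2 to 548 CPM in the 6 SNA samples, so that each SNA label held. The 10 sensory neuron markers summed to 11750 to 13309 CPM in every sample, against which the 9 macrophage markers found summed to 73.02 to 126.8 CPM. Among other cell types, 3 libraries stood apart. SH SNA replicate 2 held 863.2 CPM of skeletal muscle markers (2.696 to 145.6 CPM elsewhere), EE Sham replicate 3 held 25.0 CPM of sympathetic neuron markers (9.746 to 15.28 elsewhere), and EE + SNA replicate 3 held 590.6 CPM of neutrophil markers (59.44 to 257 elsewhere). The results of Gch1 and Nos1 after SNA are also given without those of the 3 that each comparison holds. Over both housings, the lists of other cells gave markers higher after SNA in 3 of 6 of satellite glia, 4 of 6 of myelinating Schwann cells, 2 of 6 of fibroblasts, 1 of 6 of mural cells, 1 of 5 of mast cells and 1 of 5 of neutrophils, beside 11.4% of all genes. No marker of these lists was lower, and none of 2 of sympathetic neurons or 6 of skeletal muscle was called (edgeR).

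Set against each other in FPKM, which divide by gene length and library total, over the 12 samples, the rate-limiting enzyme was among the lower mRNAs of the pathway. Qdpr, which recycles the cofactor, was highest at 66.7 ± 4.12 FPKM (mean ± SD, n = 12), and Pcbd1, the dehydratase of the same recycling, followed at 39.9 ± 3.19. Spr had 29.0 ± 2.82 FPKM and Pts 26.2 ± 1.80 FPKM. Nos1 had 6.34 ± 0.644 FPKM and Gch1 3.0 ± 0.503 FPKM. Nos3 had 1.13 ± 0.231 FPKM and Gchfr, the feedback inhibitor, 0.863 ± 0.297 FPKM. In 12 of 12 samples each gene stood above the next in this order, except that Spr was above Pts in 10 of 12 and Nos3 above Gchfr in 9 of 12. Mean Gch1 was thus 8.76-fold lower in FPKM than Pts, the next enzyme of the synthesis, and 22.3-fold lower than Qdpr. The order and the folds between genes rest on the gene lengths that the authors used, which the sources do not state. In CPM, not divided by length, Gch1 had 8.36 and Pts 27.3 on average. Their exons cover 6251 and 6101 bases in the annotation used here. With lengths so alike, the fold between them would be near that of their CPM and below 8.76.

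**Figure D1:**
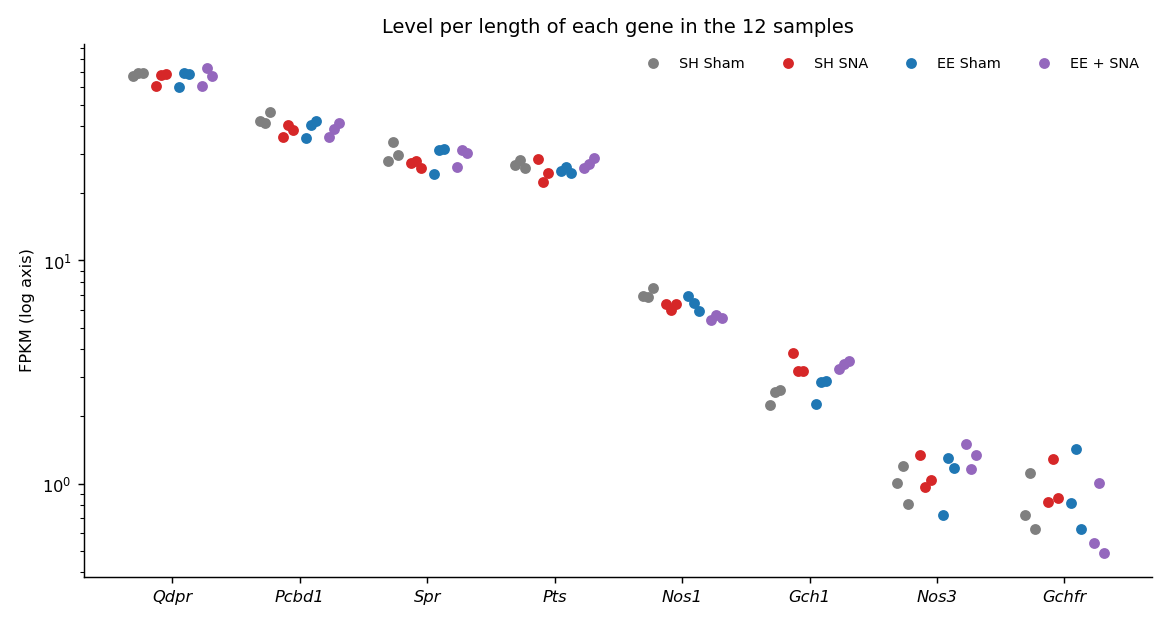
FPKM (log axis) of the 8 genes, ordered by their mean, with 1 point for each of the 12 samples and colours for the 4 groups. The 4 enzymes after or beside Gch1 (Qdpr, Pcbd1, Spr, Pts) lie between 22.6 and 72.7 FPKM, and Gch1 between 2.25 and 3.84 FPKM.

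The first question was what axotomy did to the enzymes of BH4 synthesis. Gch1, their first and rate-limiting enzyme, rose after SNA, and no other enzyme of BH4 synthesis or recycling passed the test. Gch1 had 6.27, 7.09 and 7.28 CPM in SH Sham and 10.7, 8.95 and 8.90 CPM in SH SNA. In the enriched groups it had 6.49, 7.81 and 8.03 CPM in EE Sham and 9.25, 9.56 and 9.98 CPM in EE + SNA. All 6 SNA samples were above all 6 Sham samples, with the lowest SNA sample at 8.90 and the highest Sham sample at 8.03 CPM. Over both housings, groups did not overlap in this way for 11.1% of all genes tested.

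Taken over both housings in a model with housing as a term, Gch1 was 1.34-fold higher after SNA (95% interval 1.18 to 1.51, log2 fold change 0.42 ± 0.085 SE), with an adjusted P-value of 0.00165 in edgeR's quasi-likelihood test. Adjustment was by Benjamini-Hochberg over all genes tested, and genes are called, higher or lower, at an adjusted P-value under 0.05. An exact permutation test on the CPM of the 6 against 6 samples, without regard to housing, gave P = 0.00216. This is the smallest it can give and follows from the lack of overlap. The P-values measure the spread between pools of mice. The rise was kept under all 21 alternative settings tried, with a log2 fold change of 0.30 to 0.46.

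Within each housing the same gene rested on fewer samples. In SH SNA against SH Sham it was 1.39-fold higher (log2 fold change 0.47 ± 0.126 SE, adjusted P-value 0.0299, edgeR). This was the only call among the 7 genes tested there, where 11.2% of all genes were called. The call was lost with DESeq2 (adjusted P-value 0.0762) and when SH Sham replicate 1, 2 or 3 or SH SNA replicate 1 was left out, with adjusted P-values of up to 0.137. It was kept without SH SNA replicate 2, the library with muscle markers (adjusted P-value 0.0445, edgeR). Without SH SNA replicate 1 the calls over all genes also went from 1823 to 1207. In EE + SNA against EE Sham it was 1.28-fold higher (log2 fold change 0.36 ± 0.130 SE), with an unadjusted P-value of 0.0184 and an adjusted P-value of 0.145 in edgeR, which missed the threshold. There, 0 of 7 genes were called after adjustment, by edgeR or DESeq2, beside 4.83% of all genes, and 2 of 7 (Gch1 and Nos1) passed an unadjusted 0.05 in edgeR, beside 20.6%. The calls over all genes behind the 4.83% moved with the library left out. Leaving out replicate 1 or 3 of EE Sham took the 785 calls to 482 or 361, and leaving out replicate 2 took them to 1082. Leaving out replicate 1, 2 or 3 of EE + SNA took them to 372, 694 or 497. With both libraries that stood apart left out (replicate 3 of each group), 235 genes were called, and the log2 fold change of Gch1 was 0.40 (adjusted P-value 0.374, edgeR). The interaction of housing and surgery was −0.11 ± 0.173 on the log2 scale (unadjusted P-value 0.540, edgeR), with an interval of 0.720 to 1.20 for the ratio of the folds, so that a difference between the housings in the response of Gch1 was not shown.

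The 6 markers of injured sensory neurons (Atf3, Sprr1a, Gal, Gap43, Sox11, Jun) also rose after SNA. As markers of injury chosen with earlier results of these data known, their rise was to be foreseen. All 6 were called higher, beside 11.4% of all genes. Their sum was 493.1 to 568.2 CPM in the Sham samples and 994.7 to 1185 CPM in the SNA samples. Macrophage markers moved with SNA as well, with 6 of 9 higher, beside the same 11.4%, and a sum of 73.02 to 85.94 CPM in Sham against 92.68 to 126.8 CPM in SNA. The part of either cell type in the rise of Gch1 was not tested. Without the 3 libraries that stood apart, Gch1 was still higher after SNA over both housings, with a log2 fold change of 0.46 and an adjusted P-value of 0.00716 (edgeR).

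Gchfr, the inhibitor of GTP cyclohydrolase 1, was at the edge of detection. Its reads numbered 8, 10 and 6 in SH Sham and 7, 10 and 7 in SH SNA. In EE Sham they numbered 6, 12 and 5, and in EE + SNA 4, 15 and 4. In CPM the 12 samples ran from 0.322 to 0.910 and every pair of groups overlapped. The mean was 0.544 CPM after SNA and 0.574 CPM after sham surgery (exact permutation test, P = 0.803, n = 6 and 6). No difference was detectable at 4 to 15 reads a sample.

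The later enzymes of the synthesis did not pass the test after SNA. Pts had 28.0, 28.9 and 26.9 CPM in SH Sham and 29.5, 23.6 and 25.7 CPM in SH SNA. In EE Sham it had 26.8, 26.8 and 25.6 CPM and in EE + SNA 27.3, 28.0 and 30.4 CPM. The SH groups overlapped, while the 3 EE + SNA samples were above the 3 EE Sham samples, as in 25.8% of all genes, and the difference missed the threshold (adjusted P-value 0.50, edgeR). Over both housings the fold change of Pts was 1.01 (95% interval 0.920 to 1.11, adjusted P-value 0.913, edgeR), an interval that lies below the fold of Gch1.

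Spr, which makes BH4 in the last step, had 34.4, 41.6 and 36.5 CPM in SH Sham and 33.8, 34.9 and 32.1 CPM in SH SNA. In EE Sham it had 30.8, 38.0 and 38.8 CPM and in EE + SNA 32.8, 38.4 and 37.8 CPM. The groups overlapped in both housings, and replicate 1 of SH Sham, of EE Sham and of EE + SNA was the lowest of its group. The fold change over both housings was 0.954 (95% interval 0.863 to 1.06, adjusted P-value 0.528, edgeR).

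The enzymes of recycling did not pass the test either. Qdpr had 129.0, 131.1 and 131.8 CPM in SH Sham and 115.9, 131.3 and 131.5 CPM in SH SNA. In EE Sham it had 118.0, 131.5 and 131.5 CPM and in EE + SNA 118.2, 139.1 and 130.3 CPM. Replicate 1 was the lowest sample of every group, at 115.9 to 118.2 CPM in SH SNA, EE Sham and EE + SNA. The groups overlapped, and the fold change over both housings was 0.992 (95% interval 0.923 to 1.07, adjusted P-value 0.893, edgeR).

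Pcbd1, the dehydratase of recycling, had 34.3, 33.1 and 37.2 CPM in SH Sham and 29.1, 33.2 and 31.1 CPM in SH SNA. In EE Sham it had 29.3, 32.3 and 34.2 CPM and in EE + SNA 29.6, 31.5 and 34.1 CPM. SH Sham was high in all 3 samples, with its lowest sample at 33.1 CPM beside the highest of SH SNA at 33.2 CPM. Replicate 1 was the lowest sample of SH SNA, of EE Sham and of EE + SNA. The fold change over both housings was 0.941 (95% interval 0.863 to 1.03, adjusted P-value 0.316, edgeR).

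**Figure D2:**
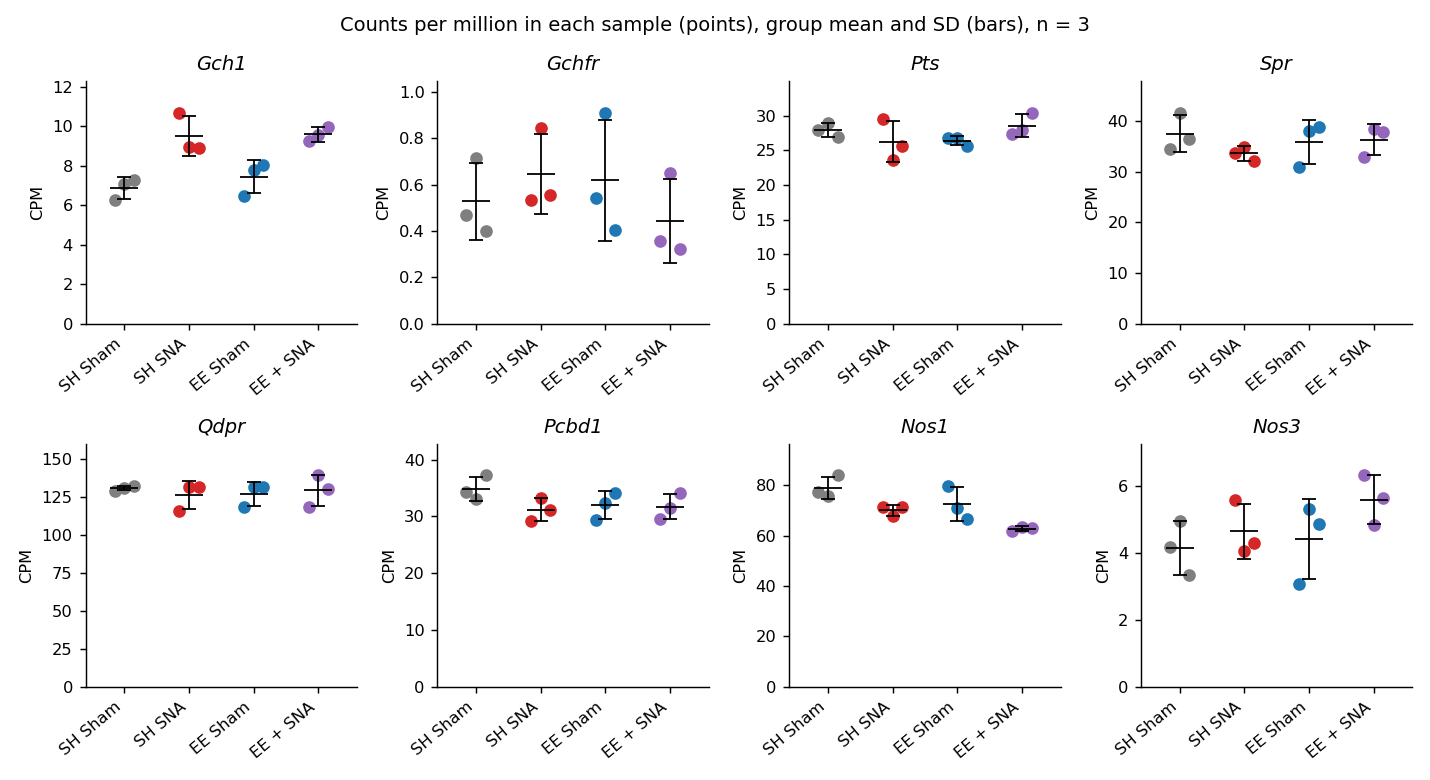
CPM of each of the 8 genes in each sample (points, 3 per group), with the group mean and SD (bars), each axis starting at 0. Gch1 stands above both Sham groups in all 6 SNA samples, from 8.90 CPM upward, and Nos1 is lowest in the 3 EE + SNA samples, at 61.8 to 63.6 CPM.

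The next question was whether the enzymes that use the cofactor changed. Nos1, the neuronal synthase, fell after SNA while Gch1 rose. It had 77.2, 75.7 and 83.9 CPM in SH Sham and 71.5, 67.6 and 71.3 CPM in SH SNA. In EE Sham it had 79.9, 71.1 and 66.5 CPM and in EE + SNA 61.8, 63.6 and 62.9 CPM. Within each housing every SNA sample was below every Sham sample (29.4% of all genes were apart in SH and 25.8% in EE), although EE Sham replicate 3 at 66.5 CPM was below all 3 samples of SH SNA.

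Over both housings Nos1 fell to 0.878 of its level in Sham (95% interval 0.821 to 0.939, log2 fold change −0.19 ± 0.046 SE, adjusted P-value 0.00698, edgeR), and an exact permutation test on CPM gave P = 0.0216 (n = 6 and 6). With Gch1 it was 1 of 2 genes called among the 7 tested, where 22.4% of all genes were called. The fall was kept under all 21 alternatives, with a log2 fold change of −0.21 to −0.16, and was −0.20 without the 3 libraries that stood apart (adjusted P-value 0.0237, edgeR). In the separate comparisons it missed the adjusted threshold, with −0.17 ± 0.059 SE in SH (adjusted P-value 0.0905, edgeR) and −0.21 ± 0.074 SE in EE (adjusted P-value 0.127, edgeR). Without the libraries that stood apart, it was −0.14 in SH (adjusted P-value 0.261, edgeR) and −0.26 in EE (adjusted P-value 0.277, edgeR).

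Among the 7 genes, Nos1 had the smallest P-value between the groups that differed in both housing and surgery. In EE + SNA against SH Sham it was lower by 0.33 ± 0.062 SE on the log2 scale, a fold of 0.794 (95% interval 0.724 to 0.872, adjusted P-value 0.00435, edgeR). Gch1 was 1.40-fold higher in the same comparison (95% interval 1.16 to 1.68, adjusted P-value 0.0222, edgeR), so that 2 of 7 genes were called where 12.5% of all genes were. The calls over all genes, 2031 in number, were 1219 without SH Sham replicate 1, 1275 without SH Sham replicate 3 and 1168 without EE + SNA replicate 1. The call of Nos1 was kept under all 15 alternatives, with adjusted P-values up to 0.0465. The call of Gch1 was lost in 6 of them, among them DESeq2 (adjusted P-value 0.0557) and those that left out SH Sham replicate 1 or 2 or EE + SNA replicate 1 or 3, with adjusted P-values up to 0.0856. EE + SNA replicate 3 is the library with neutrophil markers, and without it the adjusted P-value of Gch1 was 0.0549 (edgeR).

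Sensory neuron markers moved the same way as Nos1 after SNA. Of the 10 markers, 5 were lower over both housings (Rbfox3, Snap25, Nefh, Scn10a, Isl1) and none was higher, beside 11% of all genes called lower, with a median log2 fold change of −0.15 against 0.01 over all genes. Their sum was 12718 to 13309 CPM in SH Sham and 11792 to 12423 CPM in SH SNA. It was 12116 to 12589 CPM in EE Sham and 11750 to 12264 CPM in EE + SNA, where the groups overlapped. Their part in the fall of Nos1 was not tested.

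Nos3, the endothelial synthase, was low and spread widely. It had 4.16, 4.94 and 3.34 CPM in SH Sham and 5.58, 4.05 and 4.29 CPM in SH SNA. In EE Sham it had 3.06, 5.31 and 4.87 CPM and in EE + SNA 6.31, 4.83 and 5.64 CPM. The groups overlapped in both housings. The fold change over both housings was 1.18 (95% interval 0.959 to 1.46, adjusted P-value 0.248, edgeR), an interval that holds both no change and the fold of Gch1. In EE + SNA against SH Sham it was 1.33-fold higher with an unadjusted P-value of 0.0423, which did not hold after adjustment (0.166, edgeR), and 27.2% of all genes were under the unadjusted threshold. The 10 endothelial markers summed to 150.9 to 196.3 CPM in Sham and 183.4 to 212.4 CPM in SNA. Of these markers, 1 of 10 was called higher (Cdh5), beside 11.4% of all genes. Their part in the level of Nos3 was not tested.

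The inducible synthase Nos2, which immune cells make in inflammation, was listed with 0 to 4 reads in each sample. It had 0.18 CPM on average in Sham and 0.137 CPM in SNA (exact permutation test, P = 0.522, n = 6 and 6), so that no difference was detectable at this depth.

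**Figure D3:**
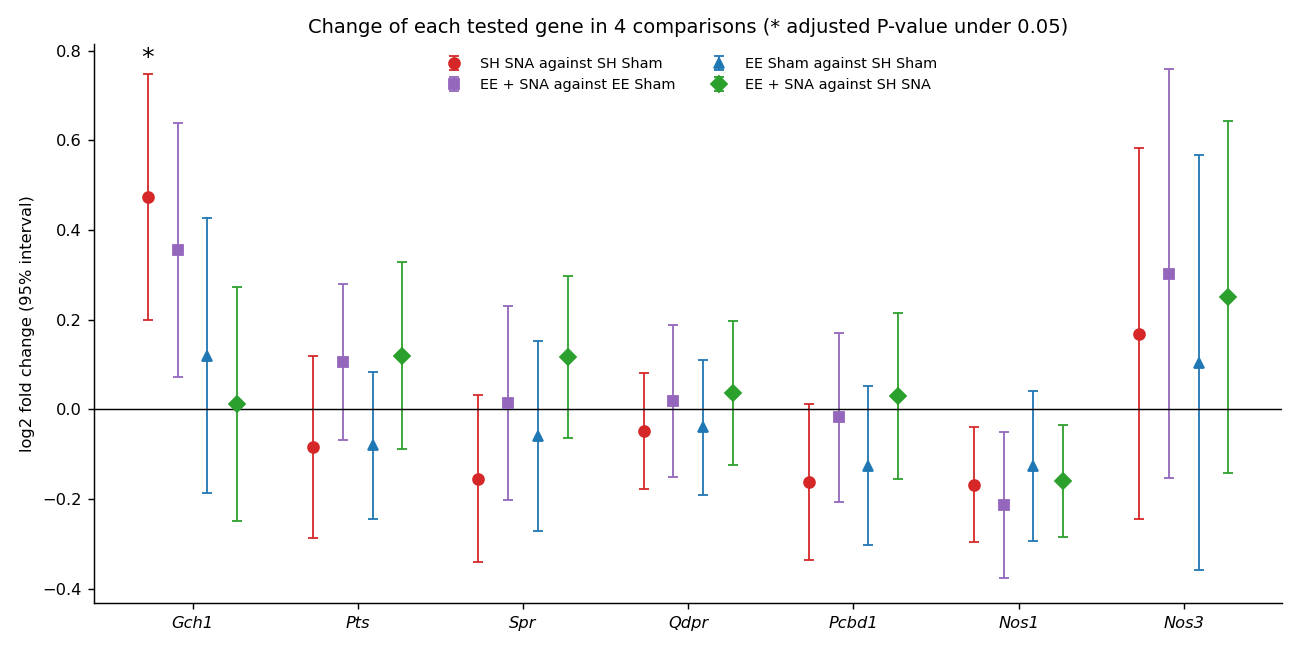
Log2 fold change with its 95% interval for the 7 genes tested, in 4 comparisons of 2 groups (3 against 3 samples each). An asterisk marks an adjusted P-value under 0.05, which Gch1 alone reached, in SH SNA against SH Sham, and all 4 intervals of Nos3 cross 0.

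The housing itself was compared next. In EE Sham against SH Sham none of the 7 genes was called by edgeR, at an adjusted or an unadjusted P-value of 0.05, nor by DESeq2 after adjustment, and 0.00616% of all genes were called (2.97% unadjusted). A fit that blocked on replicate number gave 29 calls over all genes instead of 1, and 0 of the 7 genes were among these. Correlations between samples did not settle whether equal numbers marked paired samples here. Pts was the only gene whose groups did not overlap, with 26.9 to 28.9 CPM in SH Sham and 25.6 to 26.8 CPM in EE Sham, and 7.61% of all genes had groups apart there. Its fold was 0.946 (95% interval 0.844 to 1.06). Gch1 was 1.09-fold higher in EE Sham (95% interval 0.879 to 1.34), which leaves room for a fold as large as that after SNA.

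After axotomy, EE + SNA against SH SNA also held no call among the 7 genes, in edgeR or DESeq2. Of all 16238 genes, edgeR called 0% and DESeq2 called 2 genes. Without SH SNA replicate 2, edgeR called 7 genes, and without it and EE + SNA replicate 3 it called 20, with none of the 7 genes among them. At an unadjusted P-value of 0.05, 1 of 7 passed, beside 4.1% of all genes. This was Nos1, lower in all 3 EE + SNA samples by 0.16 ± 0.057 SE on the log2 scale (unadjusted P-value 0.0161, adjusted P-value 0.989, edgeR). Groups were apart for Nos1 only, and for 10.4% of all genes. Gch1 was at a fold of 1.01 (95% interval 0.842 to 1.21), so that its level after axotomy differed by less than the replicate spread between the housings.

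Over both surgeries, EE against SH gave Nos1 a fold of 0.906 (95% interval 0.847 to 0.969) with an unadjusted P-value of 0.00675 and an adjusted P-value of 0.898 in edgeR. Nos1 was the 1 gene of 7 past an unadjusted 0.05, against 4.69% of all genes, and none was called after adjustment (0% of all genes). Because the EE Sham samples enter this comparison, housing and dataset cannot be told apart in it. For the other 6 genes the folds lay between 0.967 (Pcbd1) and 1.13 (Nos3) and each interval held 1. The interaction of housing and surgery was called for none of the 7 genes, adjusted or unadjusted, with the smallest unadjusted P-value of 0.119 at Pts (2.61% of all genes were under 0.05 unadjusted and 0% after adjustment, edgeR).

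The wider pathway was examined through 5 lists, of which 44 gene names are reported, 42 were found and 37 tested. Over both housings, 5 of the 37 passed the adjusted threshold after SNA, 1 higher and 4 lower, beside 11.4% of all genes called higher and 11% called lower. The median log2 fold change of the 37 was −0.01, against 0.01 over all genes.

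None of the 5 genes reported that reduce BH4 by salvage or other routes was called in edgeR. Of the other enzymes that need BH4, such as the aromatic amino acid hydroxylases, 4 of 6 were tested and none was called in edgeR. Among all genes tested, 22.4% were called.

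Of 10 partners and regulators of NO synthases reported, 1 was lower and 9 were not called, beside 11% of all genes called lower. Dlg4 (PSD-95, the scaffold that tethers neuronal NO synthase at synapses) had 105.3 to 122.2 CPM in the 6 SNA samples. The 6 Sham samples had 127.3 to 148.4 CPM, with no overlap, as in 11.1% of all genes. Dlg4 was at a fold of 0.855 (adjusted P-value 0.00206, edgeR), beside Nos1 at 0.878.

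The supply of arginine and the removal of the inhibitor ADMA gave 1 gene higher and 1 lower of 8 tested. Over all genes, 11.4% were called higher and 11% lower. Slc7a1, a transporter of cationic amino acids, rose 1.10-fold (adjusted P-value 0.0476, edgeR). Ass1, which makes the arginine precursor argininosuccinate from citrulline, fell to a fold of 0.877 (adjusted P-value 0.0266, edgeR).

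Downstream of NO, 2 of 10 genes of the NO receptor and cGMP signalling were lower and none was higher. Over all genes, 11% were called lower. Pde2a, a phosphodiesterase that cGMP activates, had 52.9 to 60.8 CPM in SNA and 70.9 to 78.6 CPM in Sham. The groups did not overlap, as in 11.1% of all genes. Pde2a was at a fold of 0.781 (adjusted P-value 1.09e-05, edgeR). Prkg1, the cGMP-dependent protein kinase, had 37.0 to 50.8 CPM in SNA and 48.5 to 61.1 CPM in Sham and was at a fold of 0.856 (adjusted P-value 0.0316, edgeR). The names Gucy1a1 and Gucy1b1 were not in the table, and the receptor subunits were read under their older names Gucy1a3 and Gucy1b3, which were not called. Pde2a and Dlg4 kept their calls under all 21 alternatives, whereas Prkg1 lost it in 6, Ass1 in 7 and Slc7a1 in 12 of them.

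**Figure D4:**
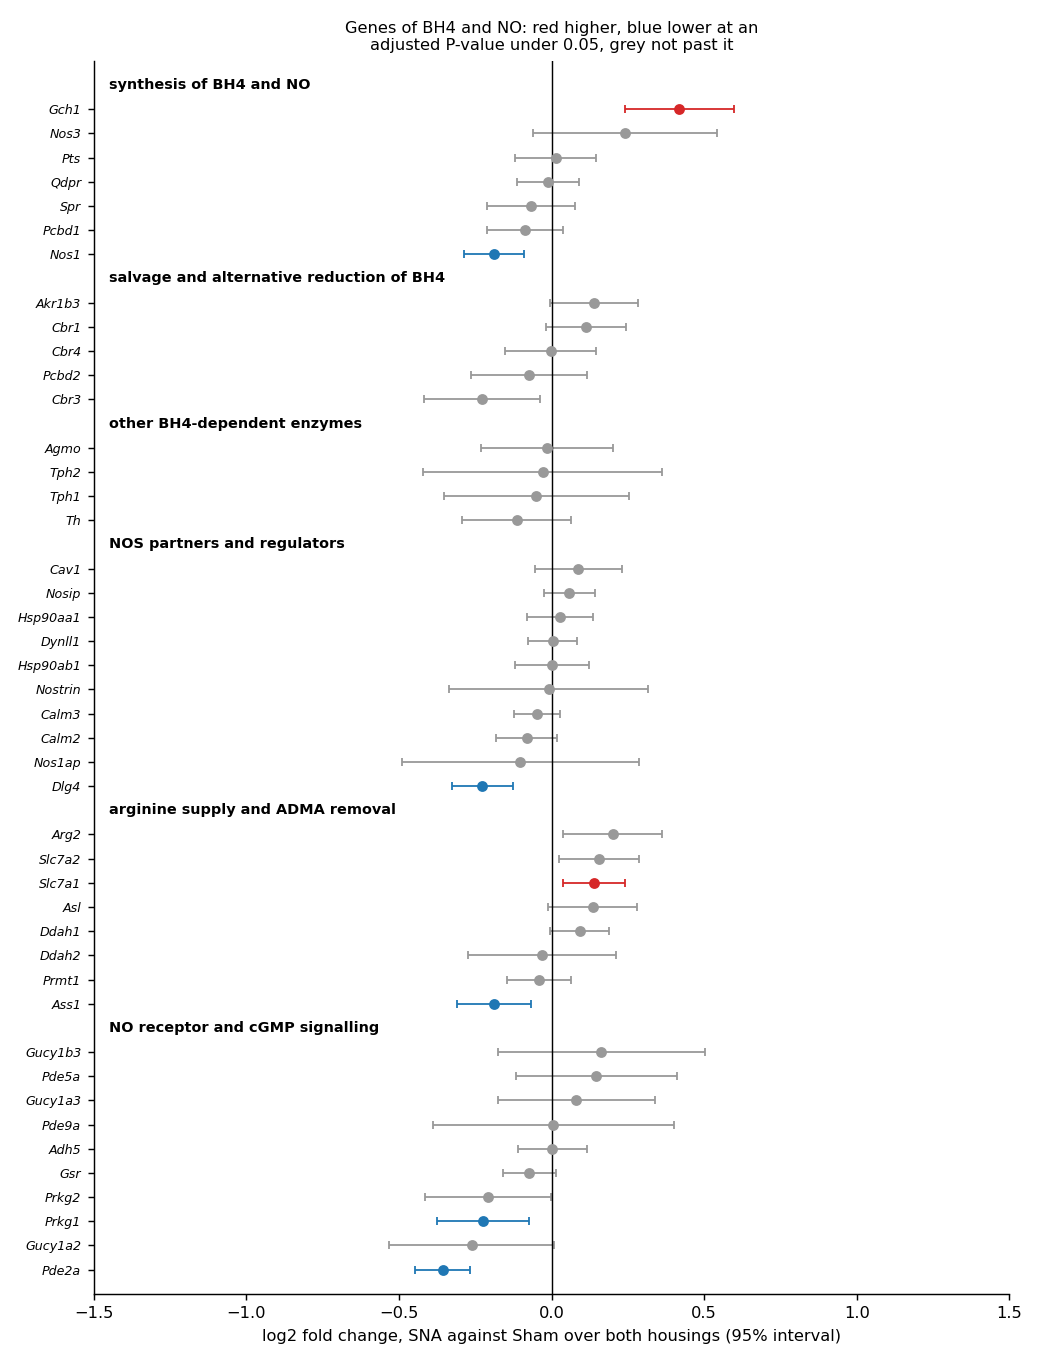
Log2 fold change, SNA against Sham over both housings (12 samples), with its 95% interval, for the 7 genes of synthesis and the 37 other genes of the pathway tested, by list. Red marks genes higher and blue genes lower at an adjusted P-value under 0.05: Gch1 and Slc7a1 are red, and Nos1, Dlg4, Ass1, Prkg1 and Pde2a are blue.

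The pattern of Gch1 over the 12 samples was set beside that of 12075 genes with a mean of at least 5 CPM, as a description. The most similar by Pearson's r of log2 CPM were Stom (0.979), Caml (0.964), Mageh1 (0.964), Eef1b2 (0.957) and Slc2a1 (0.957). The 12 points share libraries and the step from Sham to SNA. After SNA, Stom was higher by 0.41, Caml by 0.31, Eef1b2 by 0.34 and Slc2a1 by 0.67 on the log2 scale, all past the adjusted threshold, and Mageh1 was at 0.16 with an adjusted P-value of 0.0579 (edgeR).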

How the data were processed

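RNA of the 12 samples was sequenced from TruSeq mRNA libraries (Illumina, paired end). Per the submitters' processing notes and the methods, the authors aligned reads to mm10 with TopHat 2.0.12 and Bowtie2 2.2.3, sorted them with SAMtools 0.1.19 and tested them with edgeR 3.8.6. The deposited counts are whole reads per gene name from HTSeq, not normalized. Its 5 lines of unassigned reads were left out. They held 56.3% to 56.8% of each HTSeq total, and reads assigned to no feature were 46.7% to 47.6% of it. The deposited FPKM, which the authors divided by gene length and library total, were proportional to the counts (median CV of FPKM per CPM 0.0162% over 14736 genes) and served for levels between genes only.

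TMM scaling (edgeR 4.0.16, R 4.3.3) was applied to the counts, which were given as CPM (reads relative to the scaled library total) and filtered with filterByExpr (10 counts, total of 15) by the 4 groups. Comparisons of 2 groups were fitted on their 6 samples, and models over both housings or surgeries and the interaction on all 12, and tested two-sided by quasi-likelihood (F test). Genes were called at a Benjamini-Hochberg adjusted P-value of 0.05 over 16238 genes, beside an unadjusted 0.05, the study's threshold. The CPM of single genes were compared by exact permutation tests over the 12 samples, without regard to housing. The fits were tested on simulated counts. Comparisons that share a group share its samples.

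The 8 genes, the 5 pathway lists and the 12 marker lists were chosen with earlier results of these data known. Some genes of the pathway lists are not reported here and were left out of the lists, whatever their values, after the fits. Named were the 8 genes, every pathway gene past the adjusted threshold over both housings, at most 12, Nos2, Atf3, and the 5 genes most similar to Gch1 (Pearson's r of log2 of CPM plus 0.5).

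Replicate numbers were checked for pairing by the correlation of deviations from group means. For EE Sham and SH Sham, r was 0.331, 0.137 and 0.111 in the same-numbered pairs, each above 0.1. SH Sham replicate 3 and EE Sham replicate 2 had r = 0.194, above the r of either with its own number, so that the values do not settle a pairing. In each other comparison at least 1 pair was below 0.1. Alternatives were edgeR's likelihood ratio test, DESeq2 1.42.0, library size scaling, no filter, 10 counts in every sample, 12 samples in 1 fit, the replicate block, limma 3.58.1 with FPKM on the log2 scale (pseudocount 1 or 0.1), and leaving out each sample. The 3 libraries left out together were chosen after seeing the data. Positions are from GENCODE M21 on GRCm38 and promoters from RefSeq on GRCm38.p6. Figures were drawn with Python 3.11.15 and Matplotlib 3.10.9.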

Additional observations from a re-analysis of the deposited data

How the results depend on the processing

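The rise of Gch1 and the fall of Nos1 over both housings kept direction and call in all 21 alternatives, as did the falls of Pde2a and Dlg4. Calls from 3 against 3 samples were less firm. In SH SNA against SH Sham the count of genes called went from 1 to 0 with DESeq2, with the replicate block and with limma on log2(FPKM + 0.1), and ran from 0 to 1 as each sample was left out. In EE + SNA against SH Sham it went from 2 to 1 with DESeq2 and with the replicate block, and ran from 1 to 2 as each sample was left out, and Nos1 was the gene kept each time. The lost call was that of Gch1 (adjusted P-value with the replicate block 0.0617 and 0.050). In these comparisons the samples share only a number and not every sample correlated best with its own number. Over all genes the block moved the calls from 1823 to 1924 and from 2031 to 1474. In EE + SNA against SH SNA every sample correlated best with its own number, a hint from the data and not the design, and 0 genes were called with or without the block. The block changed no other count of calls among the 8 genes. The cause of the lost calls under DESeq2 and limma was not tested, while the left-out samples gave fewer samples.

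Calls over all genes that moved by over 1.5 times under other settings were as follows. In SH SNA against SH Sham, limma on log2(FPKM + 0.1) gave 979 in place of 1823. For EE + SNA against EE Sham, 785 became 1302 with the likelihood ratio test, 1694 without the filter, 1278 with 12 samples in 1 fit, and 437 and 219 with limma on FPKM plus 1 and 0.1. For EE + SNA against SH Sham, limma gave 1290 and 781 in place of 2031. In EE Sham against SH Sham, 1 became 5 with the likelihood ratio test and 48 without the filter. Without the filter, 0 became 17 in EE + SNA against SH SNA, 132 in EE against SH and 77 for the interaction, and at most 5 with the likelihood ratio test or DESeq2.

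Values that changed sign were never called. For Gch1 in EE + SNA against SH SNA (0.01 on the log2 scale), the value without SH SNA replicate 2 and EE + SNA replicate 3 was −0.058, and −0.036 to 0.105 as each sample was left out. For Pts after SNA over both housings, limma gave −0.001 on both FPKM scales, and leaving out each sample gave −0.02 to 0.05. For Qdpr it gave −0.044 to 0.018. For EE against SH over both surgeries, the values without the 3 libraries were −0.029 for Pts and −0.007 for Spr. Leaving out each sample there gave −0.025 to 0.048 for Pts, −0.002 to 0.079 for Spr and −0.032 to 0.023 for Qdpr. For the interaction it gave −0.094 to 0.026 for Nos1 and −0.062 to 0.30 for Nos3, whose value on all samples was 0.14. Depth limits Gchfr and Nos2, which had at most 15 and 4 reads in a sample, and to a lesser degree Nos3.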
